A study of Homo sapiens with 14 samples.

Results

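The loci of matriptase (ST14), of its partner protease prostasin (PRSS8) and of their inhibitors SPINT1 and SPINT2 held 17 of the 65774 accessible regions that the authors counted. A region was a member when its start lay in 1 of 4 windows of hg38: 130.14 to 130.22 Mb of chromosome 11 (ST14, 7 regions), 31.12 to 31.14 Mb of chromosome 16 (PRSS8, 2 regions), 40.83 to 40.87 Mb of chromosome 15 (SPINT1, 4 regions) and 38.23 to 38.3 Mb of chromosome 19 (SPINT2, 4 regions). All 17 passed the filter on low counts. The assay was ATAC-seq, which reads open chromatin through the adapters that the transposase Tn5 inserts there. The cells were SUM149PT, an established human line of inflammatory breast cancer, negative for both hormone receptors (ER-/PR-). Groups comprised Parental, the line before cloning, and its derivatives E, EM1, EM2, EM3, M1 and M2, each labelled as a clone, untreated and grown under the same conditions, with 2 libraries per group (14 libraries). What the letters of a clone stand for is not given; by its title, the study concerns the plasticity of intermediate states between epithelial and mesenchymal cells. Each group other than Parental is 1 clone, so a difference between groups cannot be told apart from a difference between single clones.

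Matriptase is a serine protease anchored in the plasma membrane of epithelial cells. It activates itself and cleaves other proteins at the cell surface, among them prostasin, pro-urokinase, pro-hepatocyte growth factor and the protease-activated receptor PAR2. Prostasin is a serine protease held at the membrane by a lipid anchor, and the proteases act in one cascade in epithelia. SPINT1 and SPINT2 encode HAI-1 and HAI-2, membrane proteins whose Kunitz domains block matriptase and prostasin. Epithelial tissues express the proteases together with these inhibitors, and the loss of inhibition leaves matriptase active outside its normal sites.

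Of the 4 genes, 1 was in the RefSeq promoter table used here (GRCh38.p14), SPINT1, with 2 start sites. The 250 bases before each were searched, and those before the first are shown because no counted region overlapped either window, so that the accessibility at the SPINT1 starts themselves is not in these values; the nearest region began 1.56 kb after the first start and 1.13 kb after the second. Capitals mark matches on either strand to the E-box CACCTG, the AP-1 motif TGACTCA and the GC box GGGCGG. A match on the other strand is capitalised as it reads on the strand shown. Both windows are on the plus strand, at chr15:40843798-40844047 and chr15:40844227-40844476.
SPINT1 start 1: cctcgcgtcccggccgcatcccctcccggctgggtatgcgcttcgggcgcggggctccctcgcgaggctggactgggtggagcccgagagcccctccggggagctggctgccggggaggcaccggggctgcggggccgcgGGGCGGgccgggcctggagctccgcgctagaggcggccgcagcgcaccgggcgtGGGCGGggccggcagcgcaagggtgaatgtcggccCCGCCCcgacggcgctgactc
The first window held 3 GC boxes, of which 2 were on the strand shown and 1 on the other, at 110, 56 and 21 bases before the start. The second held 1 E-box on the other strand, 26 bases before the start. Neither held the AP-1 motif. No match overlapped another. Of 35116 promoter windows of 250 bases in the table, 42.6% held the GC box, 17.5% the E-box and 4.2% the AP-1 motif. These matches are letters only and say nothing about binding.

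The library with the fewest counts, E replicate 1, had 8138944, and the one with the most, EM3 replicate 1, had 16786823. Values are CPM, the count as a share of the TMM-scaled library total, as mean ± SD with n = 2 libraries, and a region is said to rise, fall or pass at an adjusted p under 0.05 by edgeR's quasi-likelihood test over all 65771 regions tested. Separate cultures are not stated for the libraries of a group, and a p-value here speaks of the spread between libraries, which may be technical. Of the epithelial markers, the most accessible regions within 1 kb of an end of EPCAM, CDH1 and KRT5 were at 49.4, 39.9 and 21.7 CPM in Parental, at 9.63, 2.52 and 2.05 in M1 and at 0.764, 0.496 and 0.401 in M2. KRT8 was at 27.3, 23.0 and 39.9 in the same order, and KRT19 at 68.9, 11.9 and 16.8. Of the mesenchymal markers, VIM was at 21.1, 53.2 and 65.3, FN1 at 19.3, 39.6 and 48.1, and ZEB1 at 19.2, 26.0 and 20.8. In EM2, EPCAM was at 30.1, CDH1 at 21.5, KRT5 at 10.6 and KRT19 at 20, while KRT8 was at 31.3, above Parental. VIM was at 47.0 there, FN1 at 32.9 and ZEB1 at 21.6. In E, EM1 and EM3, EPCAM was at 49.8, 41.3 and 38.1, and KRT8 at 28.6, 23.8 and 26.4. KRT19 was at 65.3, 42.2 and 40.2 in these clones, CDH1 at 35.8, 31.3 and 27.2, and KRT5 at 17.5, 13.9 and 12.7. In the same order, VIM was at 15.6, 31.7 and 36.8, FN1 at 23.8, 16.7 and 18.1, and ZEB1 at 15.5, 18.9 and 18.2. The blood and endothelial genes PTPRC, CD79A, PECAM1 and CDH5 had no region within 1 kb of an end, and CD3E had 1, at 47.6 CPM in Parental. The epithelial markers KRT18 and KRT14 and the mesenchymal marker CDH2 had none either. At 12 regions with at least 100 counts in M2 and none in the 10 libraries outside E and M2, E replicate 1 held 21.1% of the M2 level (95% exact Poisson interval 19.4 to 23.0, counting error only). E replicate 2 held 1.77% there (1.31 to 2.35).

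Accessibility fell in M1, and further in M2, at the starts of ST14, PRSS8 and SPINT2 and at the region nearest to the SPINT1 start. The difference of M2 from M1 passed in all alternatives with a test at ST14 and SPINT2. At PRSS8 and SPINT1 it was lost in some. None of these regions passed in EM1, at 85.9% to 105% of the Parental mean. In M1, 13 of the 17 regions fell against Parental, 4 did not pass and none rose; over all regions 42.4% passed, 23.4% as a fall. In M2, 10 fell, 2 rose and 5 did not pass, where 67.0% of all regions passed, 34.9% as a fall and 32.1% as a rise. The median log2 change of the 17 was -1.30 in M1 and -1.36 in M2, against 0.01 and -0.01 over all regions. Between the clones labelled E and EM and Parental few members passed, near or below the shares of all regions that passed. In E 2 fell, 11.8% of the members (11.6% of all regions passed, 6.31% as a fall). In EM2 1 fell, 5.88% of the members (9.19% of all regions passed, 6.17% as a fall). None passed in EM1 (0.628% of all regions) or EM3 (3.11%). In EM1 none of the 17 had an unadjusted p under 0.05 in edgeR and DESeq2's Wald test called none; in EM3 the counts were 2 and 1. In the test of any difference among the 7 groups, all 17 members passed, with adjusted p up to 0.034, and so did 78.6% of all regions; with single libraries left out, 13 to 16 members passed.

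**Figure D1:**
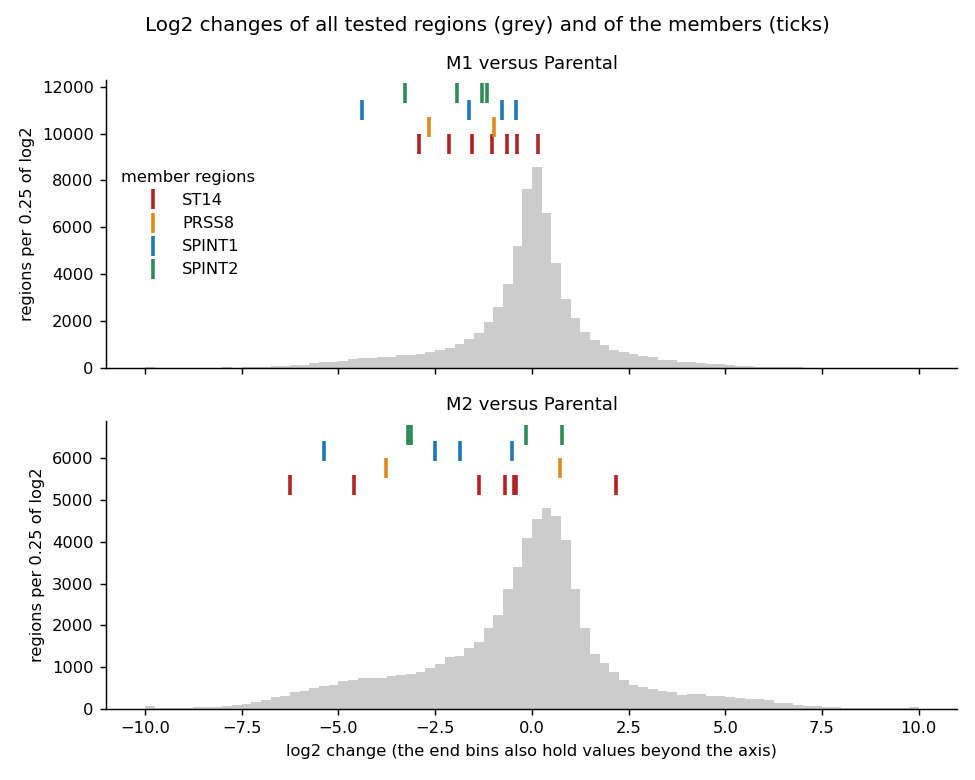
Distribution of log2 changes from Parental over all 65771 regions tested (grey bars, number of regions per bin on the y axis, log2 change on the x axis), with 1 tick per member region, coloured by gene, for M1 (top) and M2 (bottom). In M1 the ticks run from -4.40 to 0.16, and in M2 from -6.25 to 2.17.

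ST14 lies on chromosome 11 from 130159782 to 130210362. The region over its start (130159660 to 130160283) was lowest in M2 and next lowest in M1. It was at 33.9 and 27.2 CPM in the Parental libraries, 27.2 and 25.2 in EM1, 18.3 and 21.4 in E, 18.5 and 18.7 in EM2, 17.8 and 18.2 in EM3, 7.34 and 6.67 in M1, and 1.49 and 1.07 in M2. All M1 libraries lay below every library of the other groups except M2, and the M2 libraries lay below M1. M1 held 22.9% of the Parental mean (log2 change -2.13 ± 0.20 SE, adjusted p = 3.7e-06) and M2 held 4.19% (-4.60 ± 0.25, adjusted p = 1.8e-08). M2 was lower than M1 by a log2 change of -2.47 ± 0.26 (adjusted p = 6.3e-06), a comparison in which 56.3% of all regions passed. In the order by means, Parental overlapped EM1 and E overlapped EM2, while EM1 and E, EM2 and EM3, EM3 and M1, and M1 and M2 did not overlap.

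The clones E, EM2 and EM3 had 59.1% to 65.1% of the Parental level at the ST14 start. Their surroundings differed: the median log2 change of the other regions in the surrounding window was -0.40 in E, 0.20 in EM2 and -0.0008 in EM3. Less that median, the start stood at -0.22 in E, -0.92 in EM2 and -0.76 in EM3, values without a test. EM2 passed as a fall (-0.71 ± 0.19, adjusted p = 0.033), while EM3 (-0.76 ± 0.19, adjusted p = 0.0503) and E (-0.62 ± 0.19, adjusted p = 0.055) lay just outside the threshold. Both passed in some alternatives: EM3 with DESeq2 (-0.81, adjusted p = 0.0072), with DESeq2 size factors (-0.81, adjusted p = 0.0421), with only the libraries compared (-0.76, adjusted p = 0.0281) and without either library of E, M1 or M2, and E with DESeq2 (-0.66, adjusted p = 0.0234), with its size factors (-0.66, adjusted p = 0.045) and without M2 replicate 1 (-0.62, adjusted p = 0.0484). With a term for the replicate number in the edgeR fit, EM3 (-0.76, adjusted p = 0.0171) and E (-0.61, adjusted p = 0.0265) passed as well. Neither passed in the remaining alternatives with a test. Over all those with a test, the log2 change ran from -0.95 to -0.59 in EM3 and from -0.74 to -0.45 in E. Without E replicate 1, E stood at -0.51. The EM2 call was lost without Parental replicate 1 (-0.55, adjusted p = 0.28), Parental replicate 2 (-0.90, adjusted p = 0.0504), either EM2 library (-0.71 and -0.72) or EM3 replicate 1 (-0.71, adjusted p = 0.053). M1 was lower than EM2 by -1.41 ± 0.20 (adjusted p = 0.00016), where 32.7% of all regions passed.

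The strongest member at this locus by summed signal lay upstream of ST14, 12.6 kb before its start (130146098 to 130147181) and 1293 bp past the end of APLP2, the neighbouring gene of an amyloid precursor-like protein. Its CPM values were 108 and 98.1 in Parental, 108 and 81.5 in EM1, 75.2 and 77.2 in EM3, 71.3 and 74.7 in EM2, 65.3 and 68.9 in E, 14.4 and 12.8 in M1, and 1.60 and 1.15 in M2. Only Parental and EM1 overlapped, and the gaps between EM3, EM2 and E were small beside those to M1 and M2. It had the lowest log2 change of the members in M2 (-6.25 ± 0.21, adjusted p = 1.4e-09), a 76.2-fold lower level resting on 29 counts in both M2 libraries against 2343 in Parental. In M1 the level was 7.61-fold lower (-2.93 ± 0.16, adjusted p = 9.4e-08). This region held 45.2% ± 1.4 of the summed CPM of the 7 ST14 regions in Parental, 18.0% ± 0.36 in M1 and 1.87% ± 0.054 in M2.

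Regions inside ST14 kept more of their accessibility in M2 than the start did. At 2.95 kb after the start (130162735 to 130163034) M1 and M2 had 34.3% and 39.2% of the Parental mean (-1.55 ± 0.25, adjusted p = 0.00025, and -1.36 ± 0.25, adjusted p = 0.00034). The region 6.5 kb after the start (130166281 to 130166809), with the highest CPM per kb of the locus (80.6 over all libraries), was at 51.0 ± 3.9 in Parental, 32.6 ± 1.7 in M1 and 37.6 ± 9.4 in M2. It fell in M1 (-0.65, adjusted p = 0.030) and did not pass in M2 (-0.45, adjusted p = 0.087). Its lowest group was E at 28.4 ± 5.2 (-0.85 ± 0.22, adjusted p = 0.028). At 22.1 kb (130181880 to 130182294) the values were 11.5 ± 1.5, 5.59 ± 0.52 and 8.71 ± 3.2 in Parental, M1 and M2, and only M1 passed (-1.04, adjusted p = 0.0076). The region 2799 bp past the far end of the gene (130213161 to 130213560) fell in M2 (-0.69, adjusted p = 0.036), from 7.88 ± 1.4 to 4.91 ± 0.67. Both M2 changes that did not pass did so without M2 replicate 1, at -0.72 for 6.5 kb (adjusted p = 0.0267) and -0.84 for 22.1 kb (adjusted p = 0.0216). The one at 6.5 kb also passed with scaling by library totals (-0.55, adjusted p = 0.0414) and with only the libraries compared (-0.45, adjusted p = 0.0424). Several calls were lost when 1 library was left out. The M1 fall at 6.5 kb was lost without either Parental library (-0.56 and -0.71) or either M1 library (-0.56 and -0.71). The M1 fall at 22.1 kb was lost without Parental replicate 1 (-0.91) or M1 replicate 2 (-0.95), and the M2 fall past the gene without Parental replicate 1 (-0.49), EM3 replicate 1 (-0.69) or M2 replicate 2 (-0.56), with DESeq2 (-0.67) and with only the libraries compared (-0.69).

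One ST14 region moved the other way in M2. The region 2.8 kb before the start (130156721 to 130156981) was at 13.9 and 8.94 CPM in M2 and between 1.52 and 4.25 in the other 12 libraries. No other group stood apart from Parental there. M2 rose against Parental by 2.17 ± 0.50 (adjusted p = 0.0018) and against M1 by 2.02 ± 0.50 (adjusted p = 0.0039); without M1 replicate 2 the latter was 1.40 (adjusted p = 0.051). The ST14 locus held both the lowest and the highest log2 change of the 17 members in M2, as the plot of changes along the loci shows.

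In E, 2 ST14 regions made up all the members that fell. They were the region upstream (-0.62 ± 0.15, adjusted p = 0.019) and the one 6.5 kb inside the gene. Without E replicate 1 the upstream region stood at -0.58 (adjusted p = 0.095) and the inner one at -1.04 (adjusted p = 0.047). The upstream call was also lost without Parental replicate 1 (-0.55), Parental replicate 2 (-0.65) or E replicate 2 (-0.59). The inner call was lost without either Parental library (-0.77 and -0.89), E replicate 2 (-0.60) or either M1 library (-0.81 each). The whole surroundings of ST14 were lower in E and M2: the median log2 change from Parental of the 262 or 263 other regions within the 10 Mb window centred on each member was -0.40 in E (-0.41 for the region 2.8 kb upstream) and -0.69 in M2, against 0.12 in M1. The part of DNA copy number in this was not tested. Less that median, the regions that passed in E stood at -0.22 and -0.45. The M2 start region, less its own, stood at -3.91, the region 12.6 kb upstream at -5.56, the region 2.95 kb inside the gene at -0.67, the rising region at 2.86, and the region past the gene at 0.00. The regions at 6.5 and 22.1 kb changed sign, to 0.24 and 0.28.

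**Figure D2:**
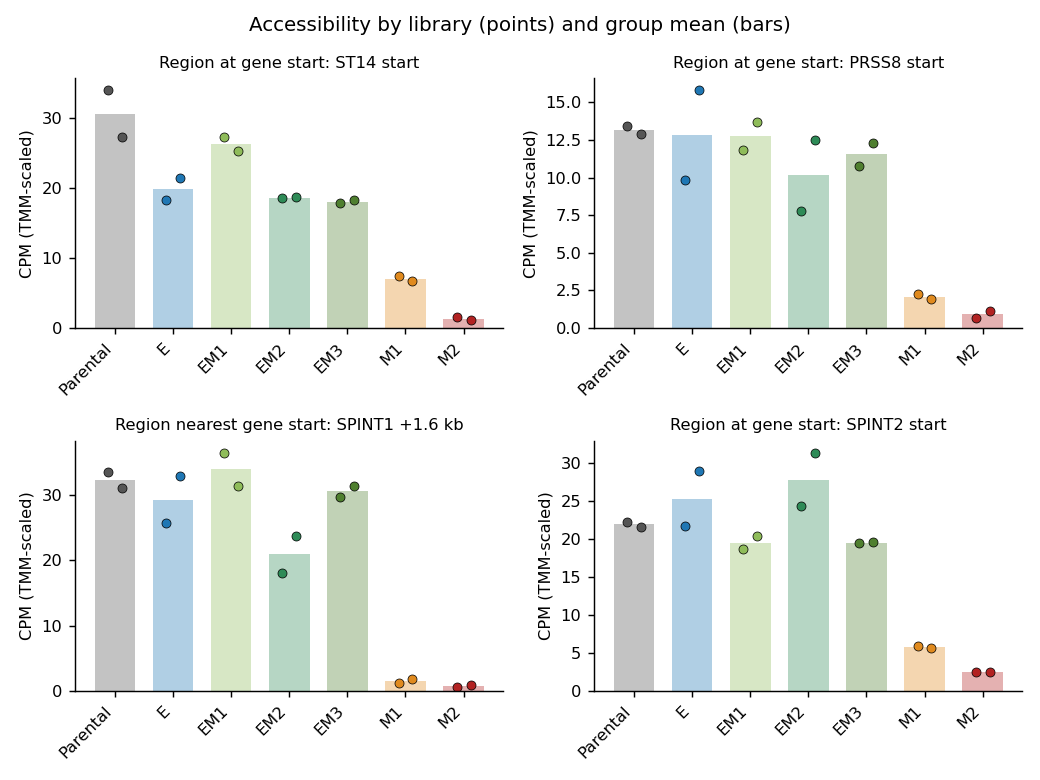
CPM of the region at, or for SPINT1 nearest to, the start of each gene in the 14 libraries (points) with the group means (bars), by group on the x axis; y axes start at 0 and differ between panels. In every panel the M1 and M2 libraries lie below those of the other 5 groups, with group means of 7.00 and 1.28 CPM at ST14, 2.07 and 0.917 at PRSS8, 1.48 and 0.745 at SPINT1, and 5.76 and 2.52 at SPINT2.

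PRSS8 (chromosome 16, 31131433 to 31135727) is read from its upper coordinate downward. The region over its start (31135507 to 31135864) was at 13.4 and 12.9 CPM in Parental, 9.83 and 15.8 in E, 11.8 and 13.7 in EM1, 10.8 and 12.3 in EM3, 7.78 and 12.5 in EM2, 2.23 and 1.92 in M1, and 0.687 and 1.15 in M2. The first 5 groups overlapped each neighbour in the order of means, and M1 and M2 lay below all of them without overlapping each other. M1 fell by 2.67 ± 0.34 on the log2 scale (adjusted p = 3.3e-05), to 15.8% of the Parental mean. M2 fell by 3.78 ± 0.38 (adjusted p = 2.1e-06), to 6.97%, on 21 counts in both M2 libraries against 300 in Parental. M2 was lower than M1 by -1.11 ± 0.41 (adjusted p = 0.036), but not without M1 replicate 1 (-1.06, adjusted p = 0.092), M1 replicate 2 (-1.24, adjusted p = 0.062) or M2 replicate 1 (-0.84, adjusted p = 0.17), nor with only the libraries compared (-1.15, adjusted p = 0.084).

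The other region of this window did the opposite in M2. It lay 2.86 kb before the PRSS8 start (31138587 to 31138923) and 3 bp from the end of PRSS36, which encodes another secreted serine protease, polyserase-2. Its values were 13.4 and 17 CPM in Parental, 7.76 and 7.60 in M1, and 26.0 and 24.6 in M2. All M2 libraries were above, and all M1 libraries below, every other library. M1 fell (-0.98 ± 0.21, adjusted p = 0.0021) and M2 rose (0.73 ± 0.21, adjusted p = 0.0065), so that M2 stood above M1 by 1.72 ± 0.21 (adjusted p = 2.5e-05). The M2 rise was lost without Parental replicate 1 (0.58, adjusted p = 0.074). The 195 other regions within the surrounding 10 Mb had a median change of 0.88 in M2, 0.25 in E and 0.01 in M1. Less that median, this region stood at -0.14 in M2 and the PRSS8 start at -4.66; the part of copy number was not tested. Because of its size, the summed CPM of both regions was 26.2 ± 0.66 in M2 against 28.4 ± 2.1 in Parental, while it was 9.75 ± 0.34 in M1.

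**Figure D3:**
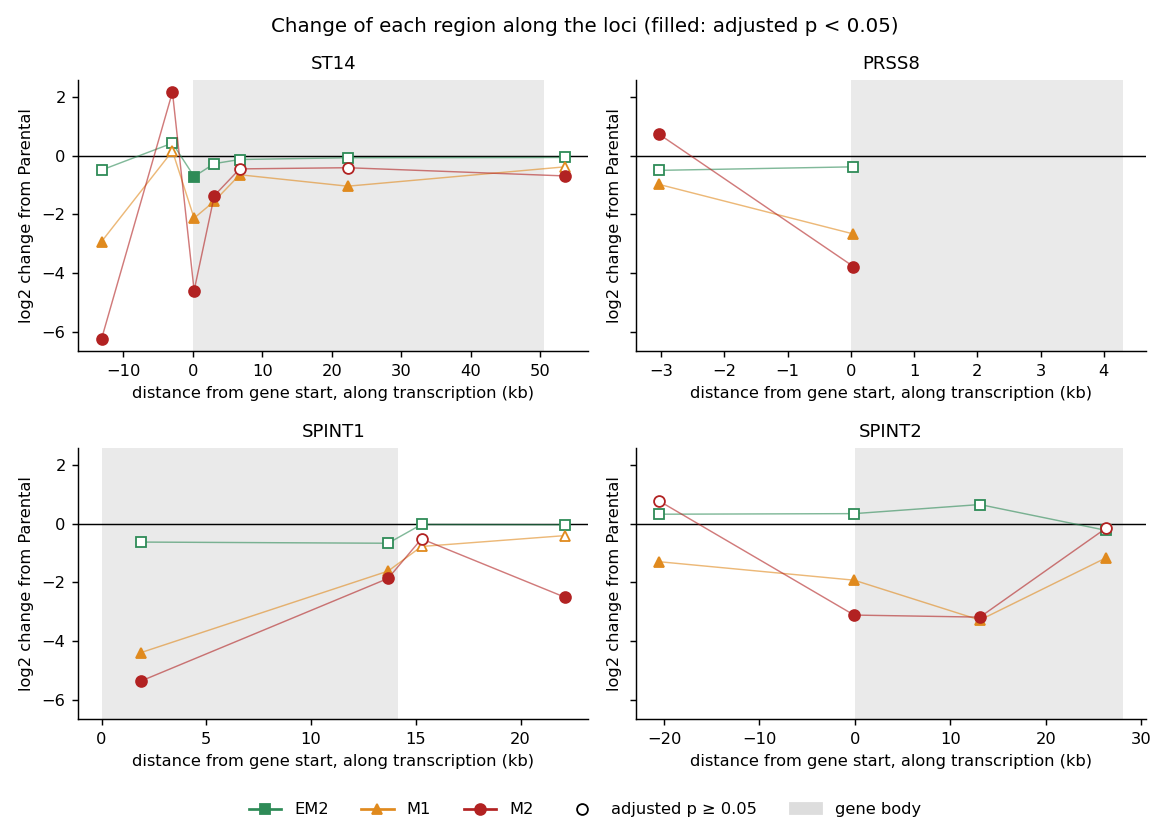
Log2 change from Parental (y axis) of each member region against the distance of its midpoint from the gene start along transcription, in kb (x axis, scaled per panel), for EM2 (squares), M1 (triangles) and M2 (circles); filled symbols passed at an adjusted p under 0.05, and the gene body is shaded. M1 and M2 fall at the starts of ST14, PRSS8 and SPINT2 and at the region nearest to the SPINT1 start, and M2 rises at 1 region upstream of ST14 (2.17) and 1 upstream of PRSS8 (0.73).

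SPINT1 (chromosome 15, 40844048 to 40858207) had the sharpest difference between M1 and Parental among the members. Its region nearest to the start, 1.56 kb inside the gene (40845606 to 40846250), was at 33.6 and 31.1 CPM in Parental, 36.5 and 31.5 in EM1, 29.8 and 31.5 in EM3, 25.7 and 32.9 in E, 18.1 and 23.8 in EM2, 1.17 and 1.78 in M1, and 0.573 and 0.917 in M2. Parental, EM1, EM3 and E overlapped, EM2 lay below them, and the M clones lay far below EM2. M1 had 4.56% of the Parental mean (-4.40 ± 0.27, adjusted p = 1.5e-07) on 38 counts, and M2 had 2.30% (-5.37 ± 0.30, adjusted p = 2e-08) on 17 counts. In M1, 3.18% of all regions had a lower log2 change. The difference of M2 from M1 was -0.97 ± 0.38 (adjusted p = 0.044), and ranged from -1.42 to -0.60 over the alternatives. It was lost without Parental replicate 1 (-0.97), EM1 replicate 1 (-0.97), EM3 replicate 1 (-0.97), M1 replicate 2 (-0.60) or M2 replicate 1 (-0.73), with DESeq2 (-0.97, adjusted p = 0.073) and with only the libraries compared (-1.0, adjusted p = 0.16).

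EM2 stood between the other EM clones and M1 at this SPINT1 region. Against the mean of EM1 and EM3, EM2 was lower by -0.62 ± 0.19 (adjusted p = 0.035), the 1 member of 17 that passed this comparison; 17.1% of all regions did, 10.2% as lower and 6.93% as higher. The call was lost without EM2 replicate 1 (-0.44, adjusted p = 0.32), EM1 replicate 1 (-0.57), EM3 replicate 1 (-0.64), EM3 replicate 2 (-0.61), Parental replicate 1 (-0.62) or Parental replicate 2 (-0.63). Against Parental the EM2 change was -0.63 ± 0.21 and did not pass (adjusted p = 0.084), though it did with DESeq2 (-0.67, adjusted p = 0.0423). M1 was lower than EM2 by -3.77 ± 0.27 (adjusted p = 9.9e-07).

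Towards the far end of SPINT1 the changes were smaller. At 244 bp inside that end (40857484 to 40857963) the level went from 32.4 ± 7.8 CPM in Parental to 10.5 ± 0.28 in M1 (-1.62, adjusted p = 0.00081) and 8.95 ± 2.7 in M2 (-1.87, adjusted p = 0.00017). EM2 was at 20.4 ± 5.3 there and did not pass (-0.67, adjusted p = 0.19). The region 994 bp past the end (40859201 to 40859441) was at 13.6 ± 1.7, 7.81 ± 2.8 and 9.55 ± 3.0 in Parental, M1 and M2 and passed in neither clone. Its M1 change was -0.78 (adjusted p = 0.058) and passed with DESeq2 (-0.77, adjusted p = 0.0488), without M1 replicate 2 (-1.22, adjusted p = 0.0287), without either E library and without M2 replicate 1. The most accessible member per kb (119 CPM per kb, above 99.6% of all regions) lay 21.8 kb after the start (40865852 to 40866474), 5740 bp from an end of RHOV. It was at 84.9 and 89.0 in Parental, 62.1 and 68.2 in M1, and 20 and 11 in M2. The libraries of Parental, E, EM1, EM2 and EM3 ranged from 74.0 to 103. The fall passed in M2 (-2.51 ± 0.23, adjusted p = 9.5e-07) and not in M1 (-0.41, adjusted p = 0.13), except with only the libraries compared (-0.40, adjusted p = 0.0265) or without M2 replicate 1 (-0.41, adjusted p = 0.0381), and M2 was below M1 (-2.09 ± 0.23, adjusted p = 8e-06). The surrounding 10 Mb had a median change of -0.12 to -0.14 in M2 and 0.08 to 0.09 in M1.

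SPINT2 (chromosome 19, 38264573 to 38292615) also closed at its start in both M clones. The start region (38263993 to 38264997) was at 22.2 and 21.6 CPM in Parental, 24.3 and 31.3 in EM2, 21.7 and 28.9 in E, 19.4 and 19.6 in EM3, 18.6 and 20.4 in EM1, 5.85 and 5.68 in M1, and 2.52 and 2.52 in M2. EM2 and E had the highest means and overlapped, and M1 and M2 stood apart below. M1 had 26.3% of the Parental mean (-1.93 ± 0.21, adjusted p = 1.1e-05), M2 had 11.5% (-3.12 ± 0.23, adjusted p = 1.9e-07), and M2 was below M1 (-1.19 ± 0.24, adjusted p = 0.0011). Against the mean of EM1 and EM3, EM2 was at a log2 change of 0.51 ± 0.17 here, which did not pass (adjusted p = 0.052) but did without either E library (0.51 each) or M2 replicate 2 (0.51). Whether the EM2 change differs between the loci was not tested.

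Inside SPINT2, a weak region 13.0 kb after the start (38277527 to 38277815) went from 3.38 ± 0.22 CPM in Parental to 0.365 ± 0.24 in M1 (-3.29 ± 0.63, adjusted p = 0.00082) and 0.344 ± 0.16 in M2 (-3.19 ± 0.63, adjusted p = 0.00054), with 8 counts in each clone. Its highest group was EM2 at 5.31 ± 0.43. The region 1415 bp before the far end of the gene (38290555 to 38291200) separated the M clones. It was at 31.7 and 34.0 in Parental, 12.7 and 16.4 in M1, and 31.6 and 27.4 in M2. M1 fell (-1.17 ± 0.23, adjusted p = 0.0011), M2 did not pass (-0.16, adjusted p = 0.55), and M2 was above M1 by 1.01 ± 0.23 (adjusted p = 0.0024). The region 20.4 kb before the start (38243987 to 38244145), 7092 bp from an end of PPP1R14A, the gene of a phosphatase inhibitor, was at 3.21 ± 0.34, 1.33 ± 0.38 and 5.54 ± 1.9. M1 fell there (-1.30 ± 0.43, adjusted p = 0.026) and M2 was above M1 (2.07 ± 0.42, adjusted p = 0.0011), while M2 against Parental did not pass (0.77, adjusted p = 0.094). The M1 fall was lost without either Parental library (-1.19 and -1.39) or M1 replicate 2 (-1.01). The surrounding 10 Mb had a median change of 0.70 in M2, 0.24 in E and -0.10 in M1. Less that median, M2 stood at -3.81 at the start, -0.86 near the far end and 0.08 upstream.

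**Figure D4:**
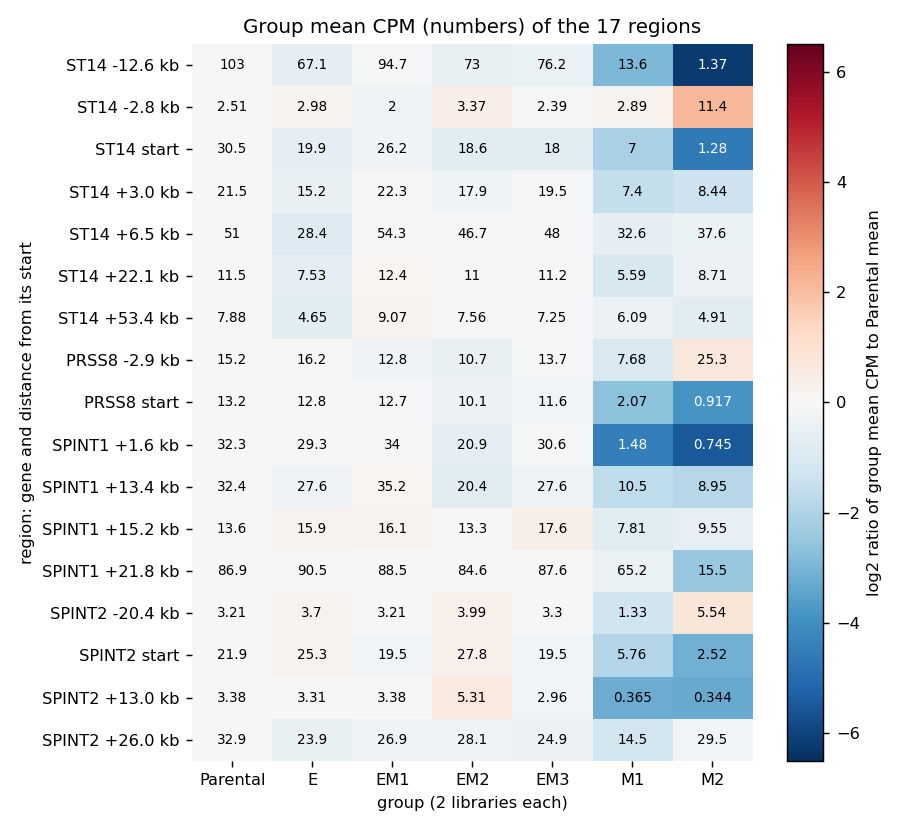
Group mean CPM (numbers in the cells) of the 17 regions (rows, named by gene and distance from its start) in the 7 groups (columns, 2 libraries each); colour is the log2 ratio of the group mean to the Parental mean. The rows of the regions over, or for SPINT1 nearest to, the starts are at 85.9% to 105% of Parental in EM1 and at 2.30% to 26.3% in M1 and M2, and 3 rows are above Parental in M2 by more than 1.5-fold: 2.8 kb upstream of ST14, 2.86 kb upstream of PRSS8 and 20.4 kb upstream of SPINT2, of which the last did not pass.

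Summed over the regions of each locus, M1 kept 33.0% of the Parental CPM at ST14, 34.4% at PRSS8, 51.4% at SPINT1 and 35.8% at SPINT2. M2 kept 32.3%, 92.5%, 21.0% and 61.7%. In M2, the region next to PRSS36 made up 96.5% ± 1.3 of the PRSS8 sum, and the one near the far end of SPINT2 made up 77.9% ± 1.8 of that sum. The medians of the surrounding 10 Mb in M2 were 0.88 for PRSS8, 0.70 for SPINT2, -0.12 to -0.14 for SPINT1 and -0.69 for ST14. SPINT1 had the lowest of the M2 sums but not the lowest median. The part of the surroundings in the sums was not tested. These sums count regions assigned by position and include those nearer to APLP2, RHOV, PPP1R14A and PRSS36; no test was made on them. Of the 10 members that differed between M2 and M1, 6 were lower in M2 and 4 higher, against 29.1% and 27.2% of all regions; those lower were both ST14 regions that fell most, the starts of PRSS8 and SPINT2, and the first and last regions of the SPINT1 window. Between M1 and EM2, 11 of the 17 were lower in M1 and none higher, where 18.6% of all regions were lower and 14.1% higher. Of these, the calls at 22.1 kb after the ST14 start, at 13.4 kb after the SPINT1 start, and at 20.4 kb before and 26.0 kb after the SPINT2 start were each lost when at least 1 library was left out, the weakest values being -0.86, -0.66, -1.29 and -0.50.

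Other genes of the same biology were taken from a list of 42: proteases of epithelial surfaces, serine protease inhibitors and substrates of matriptase. Each region went to the protein-coding gene whose end was closest, up to 50 kb away, which gave 126 regions of 32 genes, while 10 genes had none. In M1, 26 rose, 44 fell and 56 did not pass, and in M2, 39 rose, 45 fell and 42 did not pass; the median change was -0.08 in both. As shares, 20.6% rose and 34.9% fell in M1, where 19% and 23.4% of all regions did, and 31.0% rose and 35.7% fell in M2, near the 32.1% and 34.9% of all regions. The 17 regions of 11 other proteases had 1 rise and 7 falls in M1 and 2 rises and 10 falls in M2, with median changes of -0.10 and -1.09, from few regions. The 24 regions of 7 inhibitors had 5 rises and 10 falls in M1, and 6 and 11 in M2. The 85 regions of 14 substrates had 20 rises and 27 falls in M1, and 31 and 24 in M2. In E, 4 rose and 6 fell (3.17% and 4.76%, against 5.27% and 6.31% of all regions). EM2 had 2 rises and 8 falls (1.59% and 6.35%, against 3.02% and 6.17%). EM3 had 1 rise and 5 falls (0.794% and 3.97%, against 1.85% and 1.26%). In EM1 none of the 126 passed, where 0.628% of all regions did.

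Among the falls of the list with the largest log2 change was a region 17034 bp from an end of MET, the receptor of hepatocyte growth factor (chromosome 7, 116781041 to 116781343). It was at 21.2 ± 5.6 CPM in Parental and 0.152 ± 0.065 in M1 (-6.94 ± 0.64, adjusted p = 2.7e-06). In M2 it had 2 counts against 481 in Parental, a ratio of 230.0 (95% exact interval 63.3 to 1900, counting error only). At an end of MST1R, the receptor RON of macrophage-stimulating protein (chromosome 3, 49903813 to 49904196), M2 had 1 count against 729, a ratio of 697 (125 to 27600, counting error only). SDC1, the surface proteoglycan syndecan-1, had regions of both kinds. The one 7393 bp from its end (chromosome 2, 20232868 to 20233205) fell from 30.4 ± 1.1 to 0.842 ± 0.16 in M1 and 0.248 ± 0.13 in M2, and one 17957 bp away (20182514 to 20182840) rose from 0.487 ± 0.21 to 45.5 ± 7.2 in M2. TMPRSS13, a membrane serine protease, fell at an end of the gene in M1 (-4.75 ± 0.41, adjusted p = 1.7e-06).

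The largest rises in M1 were at 31691 bp from an end of CDCP1, a surface protein cleaved by serine proteases (1.75 ± 0.29 to 34.9 ± 13.0 CPM), at 1956 bp from SERPINA1, the gene of alpha-1-antitrypsin (0.263 ± 0.012, on 6 counts in Parental, to 4.19 ± 0.69), and at 3853 bp from F2RL1, the gene of PAR2 (3.46 ± 0.27 to 13.3 ± 2.5). In M2, beside SDC1, they were at 26627 bp from an end of HGF, the hepatocyte growth factor gene (0.306 ± 0.048 to 21.0 ± 12), and at 8332 bp from SCNN1B, a subunit of the epithelial sodium channel (0.309 ± 0.077 to 13.9 ± 0.74), each on 7 counts in Parental. The log2 changes of these rises lay between 1.95 (F2RL1, adjusted p = 0.0019) and 6.53 (SDC1, adjusted p = 2.4e-05).

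The regions most like the 4 start regions were sought among 10207 regions within 1 kb of an end of another protein-coding gene. Likeness was the root mean square difference of log2 group means over the 7 groups, after centring each region. For the ST14 start they were at BBOX1 (0.16), NOXO1 (0.16) and IAH1 (0.17), against a median of 1.56 over the candidates. For the PRSS8 start, regions at IGFBP2 (0.19) and COBL (0.22) were among the most like, with a median of 1.5. The SPINT1 region was nearest to GJB5, a gap junction connexin gene (0.13), then STARD9 (0.19) and DMBX1 (0.29), with a median of 2.21. For the SPINT2 start they were MAP7 (0.16), SHQ1 (0.25) and COBL (0.25), with a median of 1.30. These are the smallest of many differences over 7 group means and are given as a description.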

How the data were processed

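ATAC-seq libraries of 7 groups of SUM149PT cells, 2 each, were used as raw counts per library in 65774 consensus regions (median width 407 bp), deposited by the authors. The submitters' processing notes name hg38 and, among the tools, featureCounts, MACS2 2.1.1, Bowtie2 2.2.6, Picard, deepTools, cutadapt 1.9.1 and bcl2fastq 2.20.0.422; the role of each and how regions were merged are not given in the sources used here. Deposited peak lists were not used here, since the clone in a list's name and the sample it is attached to differ. Groups came from the labels.

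Counts were scaled by TMM and tested with edgeR 4.0.16 (R 4.3.3, quasi-likelihood F test, 7 group means, all 14 libraries, Benjamini-Hochberg over all regions). The filter (filterByExpr, minimum count 10) removed 3 regions. The common biological coefficient of variation was 0.208. SE is the log2 change over the root of F. Fitted log2 changes use a prior count of 0.125, and log2 CPM for likeness a prior of 2. The test was checked on simulated data. Gene positions are from RefSeq GRCh38.p14, the same build; that gene table gives no strand, so the direction of ST14, SPINT2 and PRSS8 is general knowledge. No genome sequence was used here.

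The start region of a gene overlaps its start or is nearest to it. Named list genes are up to 3 called rises and 3 falls of largest change in M1 and M2, each gene once. The members and lists were chosen with earlier results of these data known. Alternatives were scaling by library totals or DESeq2 size factors, the DESeq2 1.42.0 Wald test, no filter, a replicate block, only the libraries compared, omission of each library in turn, and removal of the median of the surrounding 10 Mb (minimum of 20 regions). Chi-square per degree of freedom between libraries of a group was 3.82 to 8.55, so none were duplicates. One region most like a start region is not reported here.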

Additional observations from a re-analysis of the deposited data

Results flagged for a closer look

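Effects that differ between clones were found at 11 places, each by a test of the difference itself (edgeR, adjusted over all regions). M1 and M2 differed in their distance from Parental at 10 members, 58.8% of the 17, where 56.3% of all regions differed, so that the count is near the background. M2 was lower than M1 in log2 accessibility 12.6 kb upstream of ST14 (-3.32), at the ST14 start (-2.47), in the SPINT1 window at 1.56 kb (-0.97) and 21.8 kb (-2.09) after the gene start, at the SPINT2 start (-1.19) and at the PRSS8 start (-1.11). M2 was higher than M1 at 2.8 kb upstream of ST14 (2.02), 20.4 kb upstream of SPINT2 (2.07), near the far end of SPINT2 (1.01) and 2.86 kb upstream of PRSS8 (1.72). EM2 differed from the mean of EM1 and EM3 at the SPINT1 region 1.56 kb after the start (-0.62), 1 member or 5.88%, below the 17.1% of all regions.

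Surrounding regions moved with several of these. The median log2 difference of M2 from M1 over the 10 Mb around each member was -0.84 to -0.87 at ST14, -0.21 at SPINT1, 0.77 to 0.78 at SPINT2 and 0.79 to 0.81 at PRSS8. Less that median, the regions higher in M2 stood at 2.88 (ST14), 1.31 and 0.25 (SPINT2) and 0.93 (PRSS8), and the starts at -1.63 (ST14), -1.97 (SPINT2) and -1.92 (PRSS8). The part of DNA copy number was not tested.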

How the results depend on the processing

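Of 50 called changes of single members, 34 kept their direction and stayed past the threshold in all 20 settings with a test, and 16 lost the call in at least 1; 15 changes not called passed in at least 1. The falls in M1 and M2 at the starts of ST14, PRSS8 and SPINT2, and at the region nearest to the SPINT1 start, are among those kept. The 10 Mb window median was also removed, a setting without a test. With the sign kept, 18 of the 50 called changes and 3 of the 15 others moved by more than their SE. A further 4 changes, all in M2 against Parental, turned sign, each moving by more than its SE. They went to 0.24 and 0.28 at 6.5 and 22.1 kb after the ST14 start, 0.00 past that gene and -0.14 upstream of PRSS8. Scaling by library totals moved the median of all regions by -0.11 (M2 against Parental) and -0.15 (M2 against M1).

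Counts of called regions were less stable where few differed. DESeq2 called 1197 regions in EM1 and 3643 in EM3; only the libraries compared gave 4447 in E, 1132 in EM1 and 5469 in EM3. Of the members, EM2 had 2 with DESeq2 size factors, 3 with DESeq2 and 2 with only its libraries, and EM3 had 1, 1 and 2. The cause was not tested.

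With single libraries left out, the regions called ranged from 1235 to 9269 in E, 2 to 718 in EM1, 2173 to 7478 in EM2, 108 to 3189 in EM3 and 4110 to 13181 for EM2 against EM1 and EM3. Members called ranged from 0 to 3 in E, 0 to 2 in EM2, 0 to 1 in EM3, 0 to 2 for EM2 against EM1 and EM3, 10 to 15 in M1, 10 to 14 in M2 and 7 to 11 for M2 against M1.

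Replicate numbers were not taken as pairs, since the labels name no batch that libraries of the same number share. Over 21 pairs of groups the deviations of same-numbered libraries correlated at 0.02 to 0.59 (median 0.27), all positive. Whether such libraries share a batch was not tested. With the replicate block, 13107 regions were called in E, 1601 in EM1, 10811 in EM2, 5482 in EM3 and 17566 for EM2 against EM1 and EM3, and the ST14 start passed in E (-0.61, adjusted p = 0.0265) and EM3 (-0.76, adjusted p = 0.0171). Of the 15 changes not called, 11 passed with the block and no call was lost; members called were 4 in EM2, 1 in EM3 and 3 for EM2 against EM1 and EM3. Depth limits the lowest members: the region 13.0 kb after the SPINT2 start rests on 8 counts in M1 and 8 in M2. The regions at or nearest to the starts rest in M2 on 17 to 55 counts.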
